A study of Mus musculus with 4 samples.

Results

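C1q macrophages with little MHC class II made up 1380 of the 36162 cell barcodes in 4 libraries of mouse mammary tumours. They were chosen by 4 limits on unique molecular identifiers (UMIs, each standing for 1 captured transcript). A barcode needed a summed count of at least 5 for C1qa, C1qb and C1qc, at most 1 for the keratins Krt8 and Krt18, at most 2 for the collagen gene Col3a1, and fewer than 100 UMIs of H2-Aa, H2-Ab1 and H2-Eb1 per 10000 UMIs of the cell. Barcodes that met the first 3 limits but held 100 or more class II UMIs per 10000 numbered 1146 and are called high cells below, against the low cells. All 9 genes of the limits chose the cells, so their levels are a description and no test was made on them.

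Every tumour came from an FVB female aged 13 to 14 weeks that carried MMTV-PyMT, K14Cre and Rosa-tdTomato. MMTV-PyMT expresses the polyoma middle T oncogene from a promoter active mainly in mammary epithelium, and K14Cre drives Cre in keratin 14-expressing epithelium, so all cells came from animals with these alleles, and no untransformed gland is compared here. Tumour 1 pooled several glands of mouse 1, tumour 2 was an inguinal tumour of mouse 2, and tumours 3 and 4 were a thoracic and an inguinal tumour of mouse 3. The tissue was digested with enzymes and profiled as single cells in droplets, so the libraries stand for 3 animals and no treatment. The libraries held 8434 to 9580 barcodes with a median of 1922.5, 3281, 2854 and 2589.5 UMIs per barcode in tumours 1 to 4. Between 96 and 129 barcode sequences recurred in each pair of libraries, of which 1 was a low cell in both tumours 1 and 4.

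C1q is the recognition molecule that starts the classical complement pathway, and its 3 chains are made largely by tissue macrophages. MHC class II molecules present peptides from engulfed material to helper T cells, and their genes are switched on together by the transactivator CIITA. In mouse mammary tumours, macrophages range from cells rich in class II to cells poor in it, and the poor ones have been described with programmes of lipid uptake, lysosomal digestion and matrix remodelling.

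Low cells accounted for 53.3% of the C1q macrophages in tumour 1 (364 of 683, exact 95% binomial interval 49.5 to 57.1%). In tumour 2 the share was 33.2% (116 of 349, 28.3 to 38.4%). It was 59.7% in tumour 3 (518 of 867, 56.4 to 63.0%) and 60.9% in tumour 4 (382 of 627, 57.0 to 64.8%), so the 2 tumours of mouse 3 lay within each other's counting error while tumour 2 stood below all others. Over the 3 mice the share was 48.9% ± 14.0 (SD, n = 3). As a share of all barcodes the low cells were 4.17%, 1.21%, 6.14% and 4.05% in tumours 1 to 4, or 3.47% ± 2.01 over mice (SD, n = 3). Tumour 2 also held the most keratin-positive barcodes, which are defined below, at 71.4% against 23.1 to 38.4% in the others.

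The class II level of C1q macrophages was spread over a wide range with a large group near 0. Of all 2526 C1q macrophages, 946 (37.5%) held under 25 class II UMIs per 10000, 179 held 25 to 50 and 255 held 50 to 100. On the other side of the limit 388 cells held 100 to 200, 558 held 200 to 400, and 200 held 400 or more. Among the low cells 533 (38.6%) held no UMI of the 3 class II genes. Counts of 0 depend on depth, and the low cells had a median of 2109.5 UMIs and 896 genes against 1762 UMIs and 742 genes in the high cells. Low cells were thus not the shallower cells. Cells of at least 1500 UMIs were also thinned to 1500 UMIs and gated again. The low share was then 73.6%, 35.4%, 62.3% and 63.4% in tumours 1 to 4, and tumour 2 remained the lowest. Tumour 1 moved most, but only 168 of its low and 58 of its high cells reached 1500 UMIs. Its thinned share was taken over 231 barcodes, some of which met the limits only once thinned. The cells counted thus changed as well as their depth, and the part of each was not tested. The limit of 100 cut through a continuous range, with 57 low cells at 90 to 100 per 10000, where the invariant chain gene Cd74 stood at 14948 CPM (UMIs of a gene per 1000000 UMIs of the summed cells), and 41 high cells at 100 to 110, where it stood at 17184 CPM. At the C1q limit, 17 low cells held exactly 5 C1q UMIs and 20 barcodes that met the other limits held 4, with Apoe at 15983 and 16985 CPM. For keratin, 302 low cells held 1 UMI and 102 barcodes just outside held 2, with Apoe at 41809 and 24905 CPM. Only 6 low cells held 2 Col3a1 UMIs, and 3 barcodes just outside held 3.

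**Figure D1:**
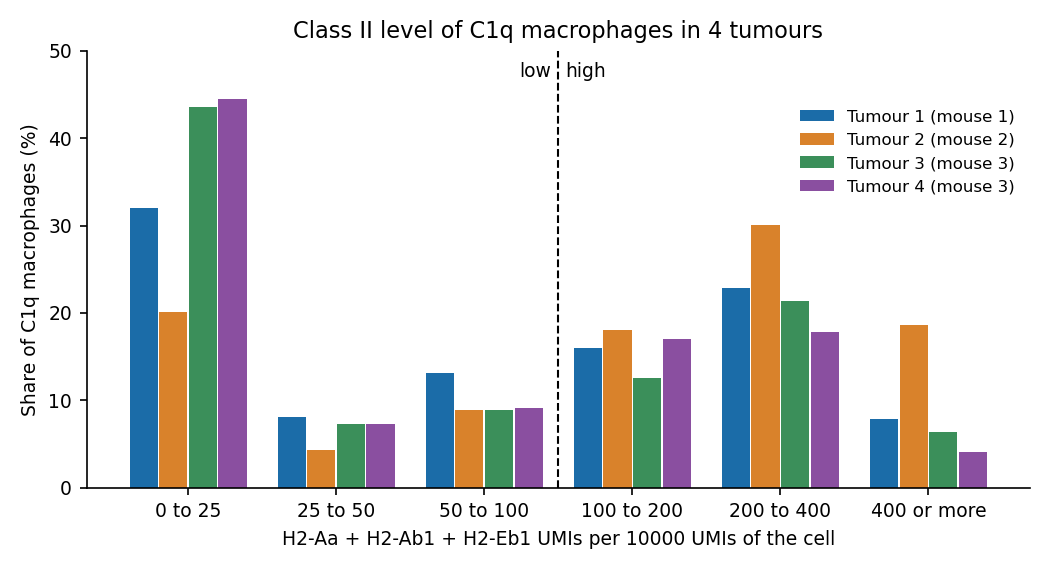
Share of C1q macrophages (y axis, %) in 6 bins of class II UMIs per 10000 UMIs of the cell (x axis), with 1 bar for each of 4 tumours. The dashed line marks the limit between low and high cells. Tumours 3 and 4 have the tallest bars in the lowest bin, and tumour 2 has the tallest in both bins from 200 upwards.

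The label was checked against macrophage markers. In the low cells Apoe, the lipid carrier apolipoprotein E, stood at 44259, 45177, 51718 and 42603 CPM in tumours 1 to 4, Trem2, a lipid-sensing receptor of macrophages, at 1074, 1519, 1367 and 1231 CPM, and Ms4a7, a membrane protein of mature macrophages, at 2006, 2253, 2167 and 1869.7 CPM. In 15180 keratin-positive barcodes (Krt8 and Krt18 summing to 5 or more, C1q at most 1), which serve as a gauge of free RNA from tumour cells, the same genes averaged 109, 8.82 and 3.96 CPM over the mice. The 3 C1q chains, which chose the cells, stood at 7340.4 ± 572 CPM (C1qa), 5620 ± 586 CPM (C1qb) and 4244 ± 373 CPM (C1qc) in low cells (SD, n = 3 mice). Their levels in high cells were 7363 ± 496, 5452 ± 549 and 4079 ± 447 CPM. All 14 genes of the macrophage identity list were detected, and their summed level was 31091 to 36435 CPM in the low cells of the 4 tumours against 116 to 205 CPM in keratin-positive cells.

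Markers of other cells were sparse in the low cells. The 14 monocyte markers summed to 48.3 to 99.6 CPM in low and 98.3 to 202 CPM in high cells, with Chil3 and Ly6i at 0 in the low cells. The 12 dendritic cell markers summed to 43.6 to 83.4 CPM in low and 80.1 to 143 CPM in high cells. Flt3, Xcr1, Clec9a, Ccr7, Itgae and Kmo were at 0 in the low cells. Xcr1 and Clec9a were at 0 in the high cells too, as was Zbtb46, which was detected in the low cells. The 12 T and NK cell markers ranged from 65.4 to 268 CPM in low and 60.2 to 442 CPM in high cells. In low cells Ccl5 gave 243 of 268 CPM in tumour 2 and 210.5 of 256 CPM in tumour 3, but only 23.8 of 66.4 CPM in tumour 1 and 22.2 of 65.4 CPM in tumour 4. The 10 neutrophil markers ranged from 88.5 to 311 CPM in low and 44.3 to 238 CPM in high cells, and the 7 B cell markers from 52.1 to 146 CPM and 90.6 to 186 CPM. Fibroblast markers summed to 21.8 to 222 CPM in low and 47.8 to 260.1 CPM in high cells, endothelial markers to 21.8 to 77.5 and 32.6 to 135 CPM, mural markers to 12.4 to 63.5 and 40.7 to 81.5 CPM, and mast cell markers to 4.83 to 15.6 and 4.22 to 10.6 CPM. Of these lists, the neutrophil and T and NK cell genes that could be tested, 3 and 1, gave no call between low and high cells, and no mast cell or endothelial gene could be tested. Among all genes tested 5.47% were called, so no call among so few genes says little. The calls on these lists were Ccr2 for monocytes, Batf3 for dendritic cells, Ighm for B cells, Mgp for fibroblasts and Acta2 for mural cells, all lower in low cells. Batf3 lost its call without tumour 2 (adjusted p = 0.105) or 4 (0.0915) and Acta2 without tumour 3 (0.426). Ighm lost its call without mouse 3 (0.0640). Mgp lost its call after thinning to 1500 UMIs, with a class II limit of 200, and without cells from 50 to 200. Over the alternatives the log2 fold change of Mgp ranged from -2.11 to 0.15, so its direction depended on the setting. The 15 luminal and milk genes were the largest foreign signal, at 1702 to 5471 CPM in low and 1736 to 3755 CPM in high cells, against 24085 to 50645 CPM in keratin-positive cells. None of the 5 luminal genes that could be tested passed the threshold between the kinds of macrophage. Against 5.47% of all genes tested, 5 genes are too few to read this as a result. After thinning to 1500 UMIs 2 of 5 were higher in low cells, as also with a class II limit of 200. Without tumour 1 there was 1 lower of 6 tested, and without tumour 2 there was 1 higher of 6. With a class II limit of 50, 1 of 5 was lower.

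The low cells were compared with the high cells of the same mice to describe what else differed when class II was low. UMIs were summed by mouse and kind of cell, which gives 3 pairs, and 4607 genes outside the 9 gate genes were tested with edgeR's quasi-likelihood test with mouse as a block. At an adjusted p under 0.05, 110 genes (2.39% of those tested) were higher in low cells and 142 (3.08%) were lower, 252 (5.47%) in all. The median log2 fold change of all tested genes was -0.01, and 240 of the 252 moved the same way in all 3 mice. The count rested in part on single libraries: it was 374 without tumour 1, with 169 higher, and 161 without tumour 3, with 86 lower. With the mouse term dropped it was 30. Of 84 called genes on the gene lists below, 41 were not called in the fit without mouse 3, which leaves 2 mice. The lists and their members were chosen with earlier results of these data known. Their counts beside the share of all genes are therefore descriptions and no independent test.

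Because class II genes and Cd74 took 5.53 to 7.20% of the UMIs of high cells and 0.488 to 0.788% in low cells, CPM ratios of other genes lie slightly above the fold changes, which are scaled for composition. Values below are CPM by tumour, means are over 3 mice with the tumours of mouse 3 summed, and log2 fold changes are low minus high with their standard errors (SE).

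The machinery of class II presentation followed the gate. These genes share their regulator with the 3 gate genes, so their values describe the cells and are no independent result. Ciita, the transactivator itself, stood at 9.91 CPM in low and 75.4 CPM in high cells. Cd74, the invariant chain that guards the peptide groove, stood at 5119, 5032, 3169 and 3328 CPM in low cells and 32973, 42740.4, 37089 and 31447 CPM in high cells of tumours 1 to 4. The kinds did not overlap, and tumours 3 and 4 had the lowest Cd74 in low cells. The peptide-exchange genes H2-DMa (258 against 844 CPM), H2-DMb1 (162 against 625) and H2-DMb2 (39.5 against 162) were lower by log2 differences of -1.87, -2.15 and -2.17. The 2 H2-DMb genes are close copies, so reads may be split between them. H2-Ea-ps, annotated as a polymorphic pseudogene, stood at 15.2 against 183 CPM. Ctss, the protease that trims the invariant chain, differed less (3677 against 4539.7 CPM, log2 -0.41 ± 0.08 SE), and its adjusted p was 0.0587 without tumour 2.

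None of the 12 tested MHC class I genes passed the threshold, against 5.47% of all genes tested. In 9 of the alternatives 1 class I gene was lower, among them the fits without tumour 1 and without tumour 2. B2m, the light chain of class I, was 4065 ± 572 CPM in low and 3791 ± 275 CPM in high cells (SD, n = 3), with a log2 fold change of -0.02 ± 0.07 SE, and H2-K1 stood at 837 ± 111 and 735 ± 72.4 CPM.

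The start regions of 2 gate genes are shown because they carry the element by which class II genes are known to be read. Class II promoters hold a Y box, an inverted CCAAT element bound by NF-Y, next to the X box that recruits CIITA. In RefSeq windows of GRCm38.p6 (250 bases before to 50 after the start), the letters CTGATTGG were searched on both strands and are in capitals below. They stood in 1346 of 32851 windows of this length (4.10%), and the shorter core ATTGG, which is part of it, in 37.4%. H2-Aa lies at chr17:34287774-34288073 on the minus strand with the match starting 51 bases before the transcription start, and H2-Eb1 at chr17:34305617-34305916 on the plus strand with the match 62 bases before it. The windows of H2-DMa, H2-DMb1 and H2-DMb2 hold no such match to all 8 letters. Spp1, a gene higher in low cells, is shown as a contrast from outside the class II locus (chr5:104434861-104435160, plus strand), and it too holds the letters, 49 bases before its start.
H2-Aa: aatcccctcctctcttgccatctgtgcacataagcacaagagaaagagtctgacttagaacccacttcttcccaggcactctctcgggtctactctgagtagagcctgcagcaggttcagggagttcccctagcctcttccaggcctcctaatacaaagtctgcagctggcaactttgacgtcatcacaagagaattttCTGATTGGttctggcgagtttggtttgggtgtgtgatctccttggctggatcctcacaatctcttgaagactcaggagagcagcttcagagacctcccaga
H2-Eb1: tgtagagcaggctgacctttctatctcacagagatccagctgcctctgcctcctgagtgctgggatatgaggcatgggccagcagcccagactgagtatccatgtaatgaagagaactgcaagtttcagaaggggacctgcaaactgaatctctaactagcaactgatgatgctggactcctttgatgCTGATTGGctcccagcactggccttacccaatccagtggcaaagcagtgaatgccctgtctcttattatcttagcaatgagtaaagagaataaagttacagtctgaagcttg
Spp1: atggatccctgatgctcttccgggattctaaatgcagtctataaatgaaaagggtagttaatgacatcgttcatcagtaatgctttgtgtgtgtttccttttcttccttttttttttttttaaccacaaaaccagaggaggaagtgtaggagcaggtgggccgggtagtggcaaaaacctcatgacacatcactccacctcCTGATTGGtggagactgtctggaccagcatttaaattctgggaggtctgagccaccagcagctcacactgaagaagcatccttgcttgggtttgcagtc

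Many genes of the TREM2 and lipid-associated list were higher in the low cells. Of its 20 genes 18 passed the filter on low counts, 11 were higher in low cells and none lower, against 2.39% higher among all genes tested, with a median log2 fold change of 0.51. The 11 were Trem2, Spp1, Cd9, Fabp5, Lpl, Lgals3, Ctsb, Ctsd, Plin2, Lipa and Abca1, of which Ctsb, Ctsd and Lipa are lysosomal enzymes that also stand on the lysosome list. Fabp5, a fatty acid carrier, stood at 1122, 700.2, 2308 and 1547 CPM in low cells and 281, 172, 422 and 391 CPM in high cells. Low and high cells did not overlap across tumours, tumour 3 was highest among low cells, and tumour 2 was lowest in both kinds. The rise was 4.09-fold (log2 2.03 ± 0.09 SE, edgeR adjusted p = 1.07e-13, 3 of 3 mice). Keratin-positive cells averaged 307 CPM, below each tumour's low cells.

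Spp1 encodes osteopontin, a secreted matrix and adhesion protein. It stood at 2566, 2439.8, 2332 and 2710.4 CPM in low cells and 1177, 411, 777 and 1344 CPM in high cells. The low cells were nearly equal over the 4 tumours while the high cells differed, and tumour 2 had the lowest high value. In tumour 2, however, the 4 richest of 116 low cells held 480 of 784 Spp1 UMIs, so its low-cell level rested largely on them. The 4 richest low cells held 272 of 1507, 1137 of 3379 and 321 of 2447 UMIs in tumours 1, 3 and 4. The difference was log2 1.48 ± 0.15 SE (adjusted p = 1.31e-07, 3 of 3 mice), and adjusted p was 0.0618 with the mouse term dropped. Spp1 averaged 1988 CPM in keratin-positive cells. The difference between low and high cells was log2 1.43 among cells with no keratin UMI and 1.54 without cells holding a UMI of 9 marker genes of other cell types. It was lowest, at log2 1.01 (adjusted p = 3.09e-04), after thinning to 1500 UMIs a cell. The transcript was unevenly held: 910 low cells (65.9%) had a UMI against 49.7% of high cells and 45.6% of keratin-positive cells (median 3829 UMIs), and the 138 richest low cells held 69.3% of all Spp1 UMIs of low cells. At 1500 UMIs a cell these shares were 57.6%, 42.4% and 36.0%.

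Trem2, the receptor after which this lipid programme is named, differed less. Its level was 1074, 1519, 1367 and 1231 CPM in low and 863, 879, 936 and 781 CPM in high cells, with no overlap between the kinds. The log2 fold change was 0.45 ± 0.09 SE (adjusted p = 0.00106, 3 of 3 mice), and 0.43 with adjusted p = 0.0536 without mouse 3. Plin2, a coat protein of lipid droplets, rose from 204 ± 26.9 to 376 ± 86.8 CPM (log2 0.79, adjusted p = 3.42e-05), and Abca1, a cholesterol exporter, from 70.1 ± 5.57 to 144 ± 28.7 CPM (log2 0.97, adjusted p = 3.09e-04). Lgals3, or galectin-3, rose from 1240 ± 44.4 to 2037 ± 252 CPM (log2 0.60, adjusted p = 2.16e-05). Lpl, the lipoprotein lipase, and Cd9, a tetraspanin, were also called (log2 0.90 and 0.46), but Lpl was not past the threshold without tumour 3 (adjusted p = 0.127) or 4 (0.0794), nor Cd9 without tumour 2 (0.104) or 4 (0.164). With each tumour left out in turn, the list's count of higher genes ranged from 9 to 13, and without mouse 3 it was 6 with 1 lower, of 19 tested.

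Apoe, the most abundant of these genes, did not pass the test: 45885 ± 2073 CPM in low and 45029 ± 2619 CPM in high cells (log2 -0.09 ± 0.08 SE, adjusted p = 0.668). Ms4a7 was at log2 0.18 ± 0.08 SE (adjusted p = 0.264). Its call depended on the setting, with log2 0.28 and adjusted p = 0.00332 without tumour 1, and -0.036 when the class II limit was moved to 200. Gpnmb, a membrane glycoprotein of lipid-laden macrophages, was too rare to test, with 154 UMIs in 46 low cells (3.33%) and 4 UMIs in 4 high cells (0.349%), while 0.0593% of keratin-positive cells held one. By tumour the low cells held 8, 61, 71 and 14 Gpnmb UMIs, of which the 4 richest cells of each tumour held 7, 60, 33 and 11. The high level of tumour 2 thus rested on 4 cells.

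**Figure D2:**
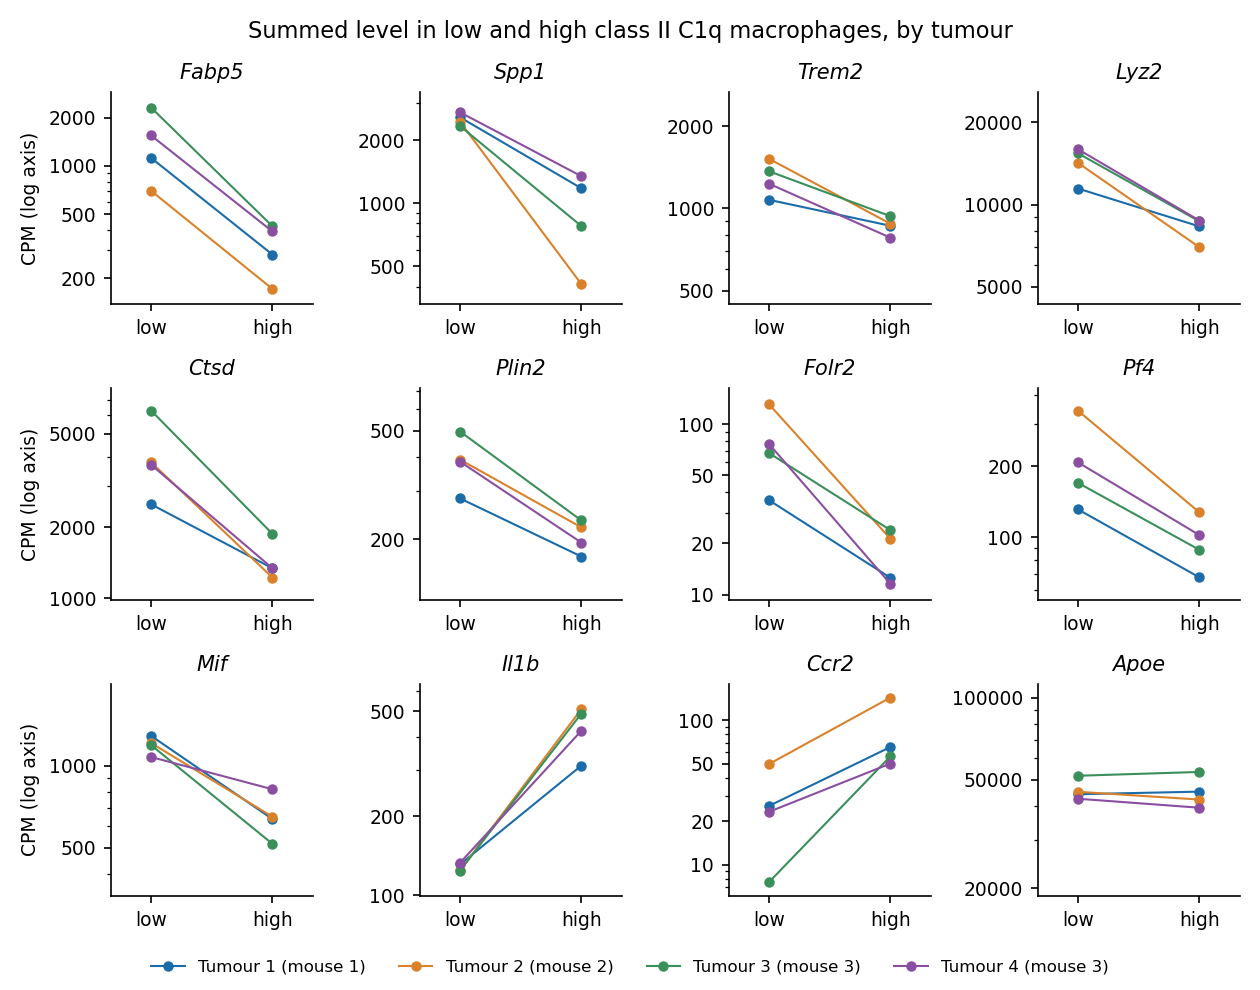
Summed level (CPM, log axis) of 12 genes in low and high class II C1q macrophages, with 1 line for each tumour joining its low and high cells. Fabp5, Spp1, Ctsd and Folr2 lie higher in the low cells of every tumour, Il1b and Ccr2 lower in every tumour, and Apoe lies at the same height in both.

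Some lysosomal genes were higher. Of 24 listed, 23 could be tested, 8 were higher and none lower, against 2.39% higher among all genes, with a median log2 fold change of 0.39. Ctsd, the aspartic protease cathepsin D, stood at 2508, 3784, 6287 and 3698 CPM in low and 1340.2, 1224, 1878 and 1340.2 CPM in high cells. Each tumour's low cells exceeded all high cells, and tumour 3 was the highest in both kinds. The log2 fold change was 1.31 ± 0.10 SE (adjusted p = 2.74e-09, 3 of 3 mice). Ctsb and Ctsl, the cysteine cathepsins B and L, rose by log2 0.56 (adjusted p = 2.02e-04) and 0.68 (adjusted p = 0.00249). Lipa, the lysosomal acid lipase, rose from 78.4 ± 6.09 to 152 ± 9.43 CPM, and Grn, encoding progranulin, from 504 ± 32.5 to 860.1 ± 190 CPM (adjusted p = 3.88e-04 and 3.77e-05). Cd68, a lysosomal membrane protein used to mark macrophages, rose by log2 0.54 (adjusted p = 3.88e-04). The calls of Lamp1 and Hexa did not survive leaving out tumour 2 (adjusted p = 0.113 and 0.0693), nor that of Lamp1 leaving out tumour 3 (0.210). Without mouse 3 the count was 3. Npc2 (1448 against 1396 CPM) and Cd63 (3164 against 2474 CPM, adjusted p = 0.0735) did not pass.

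Among 14 macrophage identity genes tested, 2 were higher and 2 lower, against 2.39% and 3.08% of all genes tested. Lyz2 and Cd68 were higher in low cells, and Ctss and Cd14, a lipopolysaccharide co-receptor, were lower (Cd14 log2 -0.73, adjusted p = 3.70e-05). Lyz2 is the lysozyme of myeloid cells. Its level was 11453, 14222, 15415 and 15950.1 CPM in low and 8325, 6984, 8689 and 8745 CPM in high cells, without overlap, at log2 0.66 ± 0.09 SE (adjusted p = 1.58e-05, 3 of 3 mice). The pan-macrophage genes Tyrobp, Csf1r and Adgre1 did not pass (log2 -0.06, -0.34 and 0.13; adjusted p = 0.769, 0.0522 and 0.796). Spi1, the myeloid master factor PU.1, was just past the threshold in the lower direction (log2 -0.37, adjusted p = 0.0420) and lost it without tumour 2 (0.186), 3 (0.122) or 4 (0.0750). It was the 1 call among 6 tested genes of the CSF1 receptor axis.

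Other macrophage lists held few calls, but on so few tested genes each called share lay above the 5.47% of all genes tested. Of 19 tested Fc receptor and phagocytosis genes, the integrin gene Itgb2 (log2 0.62) and the scavenger receptor Msr1 (log2 0.80, adjusted p = 0.00759) were higher and the Fc receptor Fcgr4 was lower (log2 -0.84). Itgb2 lost its call without tumour 1 (adjusted p = 0.0868) or 3 (0.241), and Fcgr4 without tumour 1 (0.107) or 4 (0.0597). Of 12 tested protease and matrix genes, Spp1 and the metalloprotease inhibitor Timp2 (log2 1.03, adjusted p = 3.01e-04) were higher and Tgfbi, an adhesion protein of the matrix, was lower (log2 -0.56, adjusted p = 0.0102). Abca1 was the 1 call of 11 cholesterol genes and Grn the 1 call of 4 growth factors, both higher.

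Some genes known from tissue-resident macrophages were higher in the low cells. Of 19 listed genes 11 could be tested, 5 were higher and none lower, against 2.39% higher among all genes, with a median log2 fold change of 0.63. Folr2, the folate receptor beta, stood at 35.8, 131, 67.6 and 76.4 CPM in low and 12.5, 21.3, 23.9 and 11.6 CPM in high cells. The kinds did not overlap, and tumour 2 was highest and tumour 1 lowest among low cells. The log2 fold change was 1.97 ± 0.24 SE (adjusted p = 4.93e-06, 3 of 3 mice). A Folr2 UMI was found in 10.9% of low, 2.71% of high and 0.415% of keratin-positive cells, and at 1500 UMIs a cell in 8.49%, 2.24% and 0.100%. Cbr2, a carbonyl reductase, was at 23.8, 93.4, 51.1 and 68.7 CPM in low and 12.5, 17.7, 26.7 and 7.71 CPM in high cells (log2 1.64 ± 0.26 SE, adjusted p = 1.74e-04). Tumour 1's low cells lay within the range of the high cells of the other tumours for this gene. A Cbr2 UMI was found in 9.13% of low, 2.79% of high and 8.27% of keratin-positive cells, so its share in low cells was near that of cells of another type, and at 1500 UMIs a cell the shares were 6.90%, 2.36% and 4.60%.

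Pf4, a platelet-factor chemokine also made by resident macrophages, rose from 96.5 ± 29.9 to 219 ± 109.9 CPM (log2 1.00, adjusted p = 3.42e-05), and Selenop, the selenium carrier, from 873 ± 65.2 to 1341 ± 276 CPM (log2 0.50, adjusted p = 2.96e-04). Ccl8, a monocyte chemokine, stood at 438, 1164, 497 and 518 CPM in low and 218, 131, 652 and 343 CPM in high cells. Tumour 3 went the other way, the gap was widest in tumour 2, and the call (log2 1.00, adjusted p = 0.0392) was lost without tumour 2 (adjusted p = 0.460). Mrc1, the mannose receptor, averaged 58.2 ± 28.2 and 27.9 ± 10.4 CPM and did not pass (adjusted p = 0.215). Without tumour 1 the list's count of higher genes was 10 of 13 tested, and without tumour 2 it was 5 of 12. In DESeq2 it was 3 of 9, and with the mouse term dropped it was 0 of 11.

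Within the low cells, some cells held both a Folr2 or Cbr2 UMI and high Spp1. The cells holding only the one or the other differed in other genes. Splitting the low cells by these genes is a description, since the split was chosen with their values known. Of 330 low cells with 5 or more Spp1 UMIs, 67 (20.3%) held a UMI of Folr2 or Cbr2, against 161 (15.3%) of the 1050 with fewer. By mouse the shares were 10.1% against 5.82% in mouse 1, 22.2% against 24.5% in mouse 2 and 24.2% against 17.9% in mouse 3, so mouse 2 went the other way. Deeper cells reach both limits more easily, so these shares depend on depth. The cells with Folr2 or Cbr2 and less Spp1 numbered 161, with 16, 24 and 121 in mice 1 to 3. The cells with Spp1 and neither of the other genes numbered 263, with 80, 14 and 169. Ccl8 stood at 6426, 5397 and 2455 CPM in the former in mice 1 to 3, against 259, 41.2 and 181 CPM in the latter. Mrc1 stood at 162, 345 and 153 against 37.1, 0 and 23.8 CPM, and Maf, a transcription factor of mature macrophages, at 283, 345 and 169 against 44.5, 124 and 83.4 CPM. These 3 genes were higher in the Folr2 or Cbr2 cells of every mouse, but on few cells in mice 1 and 2. The 67 cells with both numbered 9, 4 and 54 in mice 1 to 3. Their Ccl8 stood at 378, 68.6 and 473 CPM, Mrc1 at 53.9, 0 and 41.9 CPM and Maf at 0, 68.6 and 71.9 CPM. Each value lay below that of the cells with Folr2 or Cbr2 and less Spp1 of the same mouse. Among all low cells, the 4 richest held 155 of 257 Ccl8 UMIs in tumour 1 and 290 of 374 in tumour 2. Fabp5 did not order the mice alike, at 1293, 408 and 1507 CPM in the Folr2 or Cbr2 cells and 1112, 1072 and 2692 CPM in the Spp1 cells, and Lgals3 was near equal in mouse 1 (1778, 926 and 1572 against 1772, 3011 and 2742 CPM). Trem2 was higher in the Spp1 cells of mice 1 and 3 but not of mouse 2 (849, 1741 and 1266 against 1238, 1010.5 and 1442 CPM). Median depth was 2130 and 2318 UMIs.

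Many genes of glycolysis were higher in the low cells. Of 24 genes on the hypoxia and glycolysis list 16 could be tested, 10 were higher and none lower, against 2.39% higher among all genes, at a median log2 fold change of 0.59. Of the 10, Mif and Arg1 do not belong to glycolysis. Pgam1, phosphoglycerate mutase, rose from 129.7 ± 19.5 to 279.6 ± 57.0 CPM (log2 0.98, adjusted p = 5.59e-06), and the pyruvate kinase gene Pkm from 264 ± 31.5 to 475 ± 163 CPM (log2 0.71, adjusted p = 1.51e-04). Mif, a macrophage cytokine on the same list, was at 1286, 1211, 1189 and 1076 CPM in low and 637, 650.1, 517 and 819.5 CPM in high cells. The kinds did not overlap, and tumour 4 was lowest of the low and highest of the high (log2 0.79 ± 0.08 SE, adjusted p = 2.59e-07). Gapdh, Tpi1, Pgk1, Aldoa and Ldha rose by log2 0.60, 0.57, 0.68, 0.47 and 0.46, and Pfkl, a phosphofructokinase, by 0.78, a call lost without tumour 3 (adjusted p = 0.147). The remaining called gene was Arg1, an enzyme of arginine breakdown. Several of these genes have processed pseudogenes, among which reads may be split.

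Keratin-positive cells held more of some of these transcripts than either macrophage, with 1239 CPM for Ldha and 1438 for Aldoa, but less Pgam1, at 108 CPM. The list's count was 8 of 16 among cells with no keratin UMI and 9 of 16 without cells holding other types' marker genes. It was 5 of 13 after thinning to 1500 UMIs, where Pkm and Pgk1 lost their calls (adjusted p = 0.0641 and 0.137), 7 of 16 without mouse 3 and 2 of 16 with the mouse term dropped. Arg1, arginase 1, stood at 39.2, 43.6, 35.2 and 21.0 CPM in low and 20.1, 1.77, 16.9 and 11.6 CPM in high cells, and at 147 CPM in keratin-positive cells, so it was highest outside the macrophages. Its call (log2 1.30, adjusted p = 0.0323) was lost without tumour 2 (0.101) or 3 (0.101). None of the 17 tested oxidative phosphorylation genes passed, against 5.47% of all genes tested, and their median log2 fold change was 0.15. Slc2a1, the glucose transporter GLUT1, was too rare to test, and Hk2, hexokinase 2, did not pass (62.1 ± 16.6 and 82.7 ± 4.27 CPM, adjusted p = 0.198).

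Several inflammatory cytokine and chemokine genes were lower in low cells, while others were higher. Of 9 tested cytokine genes Il1b, Tnf and Tnfsf13b, the B cell factor BAFF, were lower and Il18bp was higher. Among all genes tested, 3.08% were lower and 2.39% higher. Il1b, the inflammatory cytokine interleukin 1 beta, stood at 131, 124, 124 and 133 CPM in low cells and 311, 510.1, 491 and 422 CPM in high cells. The low cells of the 4 tumours were almost equal, and every high value exceeded them. The fall was 3.60-fold (log2 -1.85 ± 0.13 SE, adjusted p = 2.70e-10, 3 of 3 mice). Tnf was at 22.4 and 43.5 CPM (log2 -0.93, adjusted p = 0.0228), with the call lost without tumour 1 (0.110) or 3 (0.0900). Of 15 tested chemokines 6 were lower and 3 higher, against 3.08% and 2.39% of all genes, at a median log2 fold change of -0.34. The higher ones were Pf4, Ccl8 and Cxcl14, the last lost without tumour 1 (0.274) or 4 (0.0819).

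Cxcl2, a neutrophil attractant, fell from 1606 ± 613 to 999 ± 246 CPM (log2 -0.77, adjusted p = 1.66e-06), and Ccl4 from 600.2 ± 41.7 to 398 ± 40.1 CPM (log2 -0.69, adjusted p = 2.82e-05). The other lower chemokines each lost the call when single tumours were left out. Ccl3 was at adjusted p = 0.0548 without tumour 2 and 0.0944 without tumour 3, and Ccl12 at 0.141 and 0.549 without tumours 1 and 3. Cxcl1 was at 0.223 and 0.117 without tumours 2 and 3, and Cxcl16 at 0.332 and 0.0597 without tumours 2 and 4. The count of lower chemokines ranged from 3 to 5 in those fits. Cxcl9, an interferon gamma-induced chemokine, had 0 UMIs in the 1380 low cells, which allows a share of up to 0.217% of cells with a UMI, and 10 UMIs in 6 high cells. Ccl2, a monocyte attractant, was at 269.6 ± 47.2 and 218 ± 34.5 CPM and did not pass (adjusted p = 0.732).

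Il18bp, the secreted binder of interleukin 18, was the exception among cytokine genes. It stood at 34.1, 37.3, 109 and 32.1 CPM in low and 20.1, 19.5, 15.5 and 11.6 CPM in high cells, and tumour 3 stood far above the other low cells. The call (log2 1.73, adjusted p = 3.25e-04) was lost without tumour 3 (log2 0.93, adjusted p = 0.172).

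Ccr2, the receptor by which monocytes enter tissue, was lower in low cells. Its level was 25.5, 49.8, 7.59 and 23.3 CPM in low and 65.3, 143, 56.2 and 50.1 CPM in high cells. In every tumour the low cells were below the high cells, and tumour 2 was highest in both kinds, so that its low cells nearly reached the high cells of tumour 4. The log2 fold change was -1.81 ± 0.22 SE (adjusted p = 3.27e-06). A Ccr2 UMI was seen in 3.77% of low, 11.1% of high and 0.277% of keratin-positive cells. The monocyte genes Ly6c2 and Plac8 were too rare to test. Cd86, a co-stimulatory ligand for T cells, fell from 137 ± 9.74 to 88.0 ± 12.3 CPM (log2 -0.75, adjusted p = 0.00231). It was the 1 call among 7 checkpoint and co-stimulation genes, where 5.47% of all genes tested were called. The call was lost without mouse 3 (adjusted p = 0.0647), after thinning to 1500 UMIs (0.116), in DESeq2 and with the mouse term dropped.

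Immediate early genes were lower in low cells. Of 15 tested genes on the dissociation and stress list 10 were lower and none higher, against 3.08% lower among all genes tested, with a median log2 fold change of -0.53. Fos, a subunit of the AP-1 factor, stood at 678, 937, 704 and 803 CPM in low and 841, 1224, 1285 and 979.6 CPM in high cells, so each tumour's low cells were below its own high cells while the ranges overlapped across tumours (log2 -0.58 ± 0.08 SE, adjusted p = 4.54e-05). Fosb and Btg2 fell by 0.82 and 0.87 on the log2 scale (adjusted p = 6.99e-05 and 9.07e-05), and Atf3, a stress-response factor, by 0.56 (adjusted p = 0.00113). Single tumours ended the calls of Egr1 (adjusted p = 0.0907 without tumour 2 and 0.221 without tumour 3), Ier2 (0.0957, 0.0853 and 0.0691 without tumours 2, 3 and 4) and Jun (0.0991 without tumour 3). These genes are known to be induced by enzymatic digestion, and Il1b, Tnf and Cxcl2 can be too. Whether digestion had a part in the differences was not tested. The count ranged from 7 to 10 with each tumour left out and was 4 without mouse 3. The heat-shock gene Hsp90aa1 was at log2 0.02 (adjusted p = 0.959).

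Among 19 tested macrophage transcription factors 5 were lower and 1 was higher, against 3.08% and 2.39% of all genes tested. Klf4 (66.6 ± 15.6 against 111 ± 13.1 CPM, adjusted p = 0.00331) and Rel, an NF-kB subunit (87.1 ± 15.4 against 129 ± 3.91 CPM, adjusted p = 0.00264), were lower in low cells. Id2, an inhibitor of helix-loop-helix factors, was the higher one (log2 0.42, adjusted p = 0.0249) and lost its call without tumour 2 (0.158) or 4 (0.0597). Nfkbia, an inhibitor of NF-kB, was lower (log2 -0.43) and lost its call without tumour 3 (0.0604), and the remaining lower ones were Spi1 and Batf3, given above. Irf8, a factor of the myeloid lineage, was at 258 ± 57.5 and 267 ± 70.3 CPM and did not pass (adjusted p = 0.567).

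**Figure D3:**
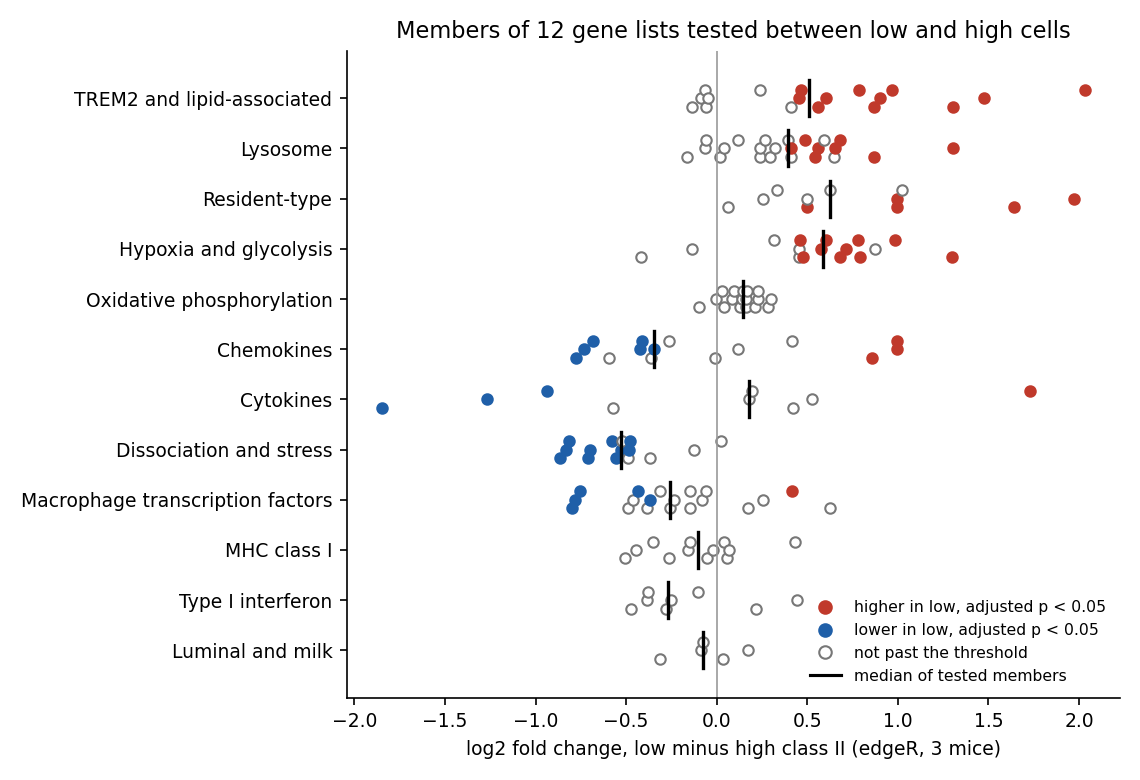
Log2 fold change between low and high cells (x axis) for each tested member of 12 gene lists (rows), filled where the edgeR adjusted p was under 0.05, with a bar at the median of the tested members. Filled points in the lipid, lysosome, resident-type and glycolysis rows lie on the higher side only, those of the stress row on the lower side only, and the oxidative phosphorylation, class I, type I interferon and luminal rows hold none.

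Several programmes gave no call or only 1 or 2 calls. None of the 8 tested type I interferon genes and none of the 7 tested complement genes passed, against 5.47% of all genes. Without tumour 1 or tumour 2, 2 of 11 tested type I interferon genes were lower, and with a class II limit of 200 there were 2 of 8. Of 10 interferon gamma genes only Ciita and the proteasome activator Psme1 did, both lower. Psme1 lost its call without tumour 3 (adjusted p = 0.0569) or 4 (0.0935). Proliferation genes gave 1 call of 13, the chromatin protein Hmgb2 (log2 -0.53), lost without tumour 3 (adjusted p = 0.145). The cell cycle gene Mki67 had a UMI in 3.12% of low, 1.75% of high and 5.70% of keratin-positive cells, and Top2a in 5.65%, 5.41% and 9.62%. At 1500 UMIs a cell the shares in low and high cells were 1.95% and 0.871% for Mki67. Iron genes gave 2 higher calls of 9, the ferritin light chain Ftl1 (24282 ± 3932 against 16562 ± 1405 CPM, adjusted p = 0.00111) and the haem-degrading Hmox1 (log2 0.78, adjusted p = 0.00539), of which Ftl1 was lost without tumour 2 (0.0679) and Hmox1 without tumour 3 (0.436). The ferritin heavy chain Fth1 did not pass (adjusted p = 0.993).

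Genes of alternative activation were split. Of 8 tested, Arg1 and the transglutaminase Tgm2 were higher, while the lectin Clec10a, Retnla and Socs3 were lower. Among all genes tested, 2.39% were higher and 3.08% lower. Tgm2 lost its call without tumour 2, 3 or 4 (adjusted p = 0.0779, 0.0918 and 0.0800) and Clec10a without tumour 1 or 3 (0.131 and 0.0579). Retnla, a resistin-like secreted protein, stood at 3.41, 21.8, 75.9 and 63.1 CPM in low and 216, 243, 40.8 and 127 CPM in high cells. Tumour 3 went the other way. In low cells its UMIs came from 1, 1, 10 and 2 cells of tumours 1 to 4, and in high cells from 3, 5, 2 and 4 cells, so a few cells set its level. The log2 fold change of -1.79 ± 0.40 SE (adjusted p = 0.00653) lost significance in DESeq2, with a C1q limit of 10, without cells near the class II limit (50 to 200), and when cells were thinned (log2 -0.88, adjusted p = 0.533). Socs3, a feedback inhibitor of cytokine signalling, was at 55.0 ± 13.9 and 98.3 ± 46.4 CPM (log2 -0.98, adjusted p = 5.69e-04).

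The naming rule by size brought up further genes outside the lists. Cela1, an elastase, stood at 49.4, 71.6, 101 and 54.3 CPM in low and 17.6, 12.4, 15.5 and 13.5 CPM in high cells, with no overlap (log2 2.19 ± 0.25 SE, adjusted p = 2.08e-06), and it had the largest log2 rise by the naming rule. Syngr1, a vesicle membrane protein, was at 364, 329.9, 610 and 531 and 143, 117, 184 and 137 CPM, also without overlap (log2 1.50, adjusted p = 3.05e-09). Capg, an actin-capping protein, rose by log2 1.42 (adjusted p = 7.58e-07). Gpr137b, a lysosomal membrane protein, rose by log2 1.40 (adjusted p = 1.04e-04), a call lost without mouse 3. Gm1673 rose by log2 2.13 and the processed pseudogene Gm6166 by 1.93, the latter possibly with reads from its parent gene.

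Saa2, an acute-phase serum amyloid, stood at 104, 9.34, 113 and 132 CPM in low and 22.6, 1.77, 18.3 and 40.5 CPM in high cells (log2 2.03, adjusted p = 4.01e-07). Tumour 2 was far below the other tumours in both kinds. A single low cell held 50 of 61 Saa2 UMIs in tumour 1, 120 of 164 in tumour 3 and 48 of 119 in tumour 4, so the level of the low cells rested largely on these cells. Over the class II bins mouse 1 stood at 11.3 CPM below 25 class II UMIs per 10000 and at 623 CPM from 25 to 50. Keratin-positive cells held more, 304, 75.6, 367 and 424 CPM in tumours 1 to 4, and Saa2 has close copies, among which reads may be split. The part of free RNA in this difference was not tested. On the lower side, Dcstamp, a fusion receptor of macrophages, was at 46.0, 3.11, 17.9 and 13.3 CPM in low and 100.4, 63.8, 61.9 and 54.0 CPM in high cells (log2 -1.85, adjusted p = 2.92e-05). Cd72, a lectin-like receptor best known from B cells, was at 78.3, 80.9, 66.9 and 73.1 CPM in low and 183, 207, 254 and 243 CPM in high cells, separate in all tumours (log2 -1.69, adjusted p = 2.17e-08). Ighm, the immunoglobulin mu chain of B cells, was also lower (log2 -0.96, adjusted p = 3.06e-04), while Ms4a1, a B cell surface marker, was at 0 in the high cells. Zmynd15, a zinc finger gene, fell by 1.55 on the log2 scale (adjusted p = 1.38e-04).

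Levels were also taken over the 6 class II bins. They are described without a test, and tumour 2 had only 15 cells in the bin from 25 to 50. Over bins starting at 0, 25, 50, 100, 200 and 400, Fabp5 averaged 1570.5, 783, 607, 396, 246 and 151 CPM over the mice. Il1b ran the opposite way, at 87.2, 139, 258, 253, 467 and 679 CPM. Folr2 was highest in the first bin, at 112, 23.5, 22.2, 20.1, 20.5 and 4.62 CPM. Spp1 stood at 3065 CPM in the first bin, 1439 CPM in the second and 683 CPM in the last. Trem2 went from 1413 to 741 CPM and Ccr2 from 18.8 to 99.6 CPM, and Apoe stood at 47916, 43647, 42436, 40687, 47051 and 48909 CPM.

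**Figure D4:**
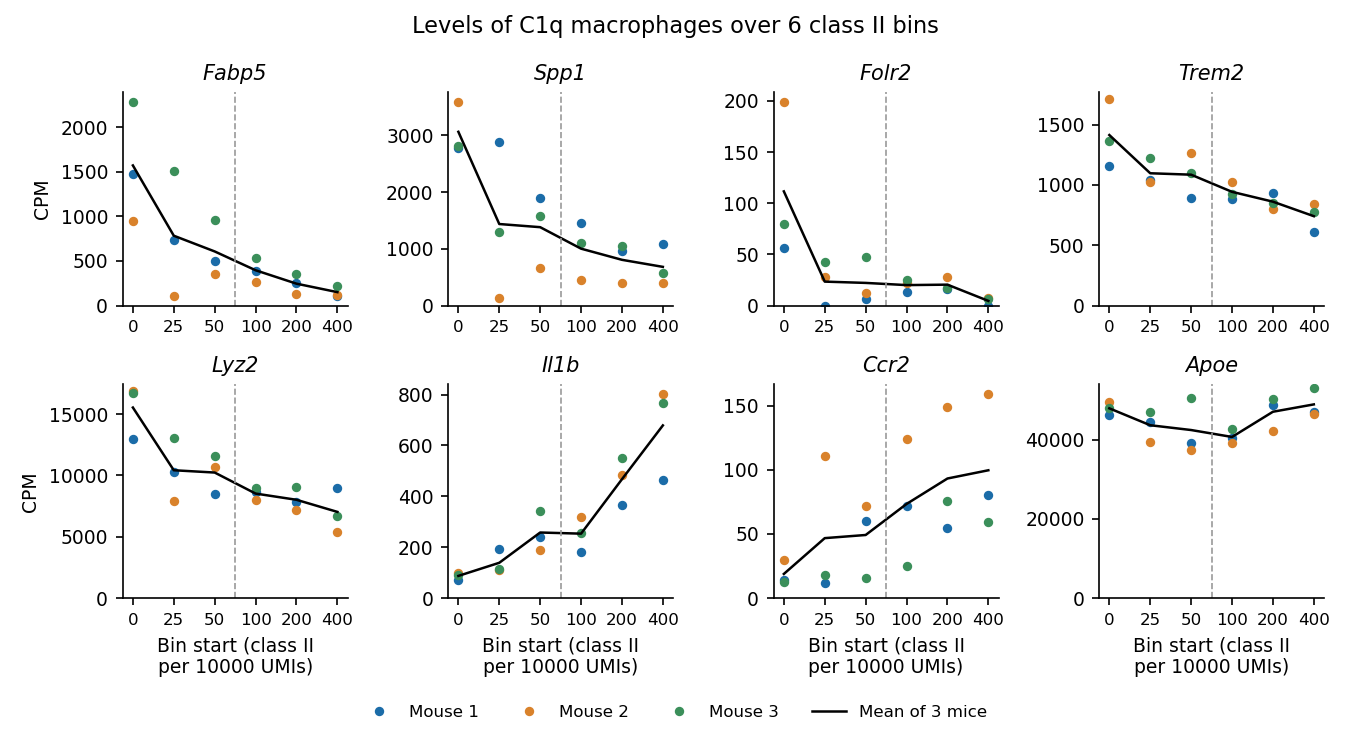
Level (CPM, y axis) of 8 genes in C1q macrophages over 6 class II bins (x axis, start of each bin per 10000 UMIs), with points for 3 mice and a line for their mean. The dashed line is the limit between low and high cells. The means of Fabp5, Spp1 and Folr2 are highest in the first bin (in mouse 1, Spp1 stands at 2777 CPM in the first bin and 2877 CPM in the second), the mean of Il1b is lowest in the first bin and highest in the last, and Apoe differs little between bins.

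Within the low cells the 4 tumours were mostly alike. Of 166 list genes at 100 CPM or more in at least 1 tumour, 132 differed by less than 2-fold between the highest and lowest tumour, and the median ratio was 1.51. The following differences are descriptions of 4 libraries. S100a8, a neutrophil protein, had the widest range, at 6.81, 34.2, 13.1 and 124 CPM in tumours 1 to 4, from 4, 11, 19 and 112 UMIs. A single low cell of tumour 4 held 101 of its 112 UMIs. Keratin-positive cells held 35.7, 39.1, 90.2 and 114 CPM, and their part in these levels was not tested.

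Ccl5, a T cell and macrophage chemokine, stood at 23.8, 243, 210.5 and 22.2 CPM in the low cells. A single low cell held 51 of the 78 Ccl5 UMIs in tumour 2 and 255 of 305 in tumour 3, so these high values rested on 1 cell each. The high cells did not follow this order, at 294, 49.6, 82.9 and 336 CPM in tumours 1 to 4.

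Interferon-induced genes were highest in the low cells of tumour 2. Isg15, a ubiquitin-like protein, was at 80.0, 237, 53.1 and 46.5 CPM, Ifi27l2a at 419, 1189, 246 and 249 CPM and Ifitm3, an antiviral membrane protein, at 243, 678, 178 and 220.4 CPM. Tumour 2 was above the other 3 for all 3 genes. The richest low cell of tumour 2 held 29 of 76 Isg15 UMIs, 36 of 382 Ifi27l2a UMIs and 18 of 218 Ifitm3 UMIs. Its high cells were the highest too for Isg15, at 50.2, 105, 61.9 and 82.9 CPM in tumours 1 to 4. In the keratin-positive cells tumour 2 was also the highest, with 62.6, 191, 51.2 and 83.1 CPM for Isg15 and 865, 1461, 337 and 631 CPM for Ifitm3. Cxcl10, of which 1 low cell of tumour 2 held 25 of 39 UMIs, was at 52.8, 121, 16.6 and 11.1 CPM in low cells and under 1 CPM in the keratin-positive cells of each tumour.

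Wfdc18, a whey acidic protein family gene of mammary epithelium, was at 3876, 1179, 843 and 1392 CPM in low cells, 2793, 1199, 1050.1 and 1763 CPM in high cells and 38960.4, 16172, 13887 and 16181 CPM in keratin-positive cells. Tumour 1 was highest in all 3 kinds of cell. Sparc, a matrix protein, was at 80.0, 21.8, 164 and 142 CPM in low cells, lowest in tumour 2, on 47, 7, 238 and 128 UMIs. Its high cells stood at 85.3, 120, 225 and 150 CPM, lowest in tumour 1. Keratin-positive cells stood at 54.1, 49.5, 167 and 113 CPM. Folr2, given above, ranged 3.66-fold between tumours, on 21, 42, 98 and 69 UMIs in tumours 1 to 4.

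**Figure D5:**
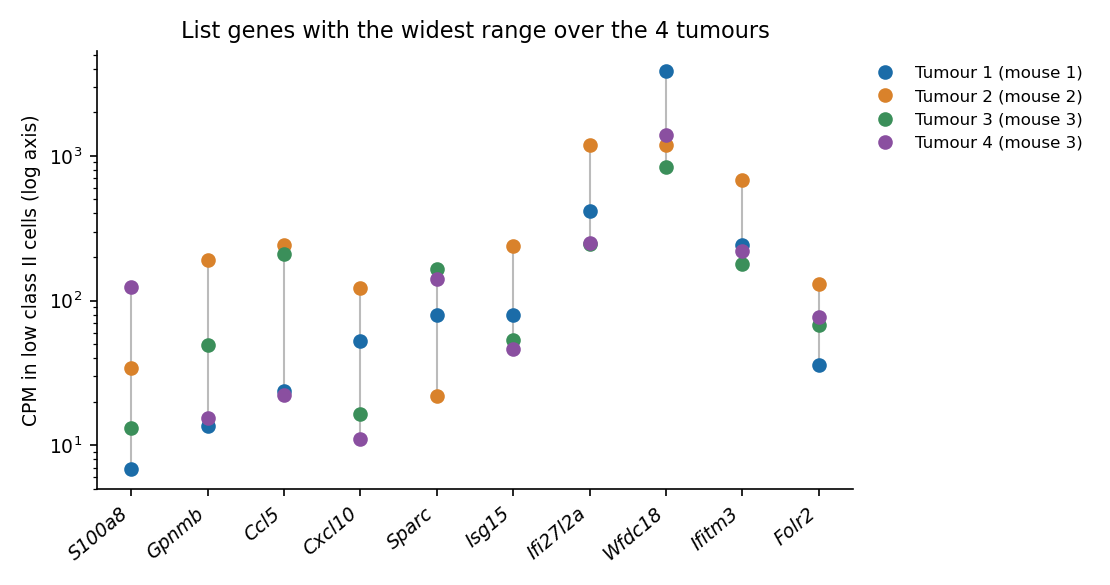
Level in low class II C1q macrophages (CPM, log axis) of the 10 list genes with the widest range over the 4 tumours, with 1 point for each tumour. Tumour 2 is highest for Isg15, Ifi27l2a, Ifitm3, Cxcl10 and Gpnmb, tumour 1 for Wfdc18 and tumour 4 for S100a8, where 1 cell held 101 of 112 UMIs.

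A further comparison with myeloid cells that lack C1q could not be fitted. Barcodes with at most 1 C1q UMI, at least 5 Lyz2 UMIs, at least 2 of Tyrobp and Fcer1g, and the same limits on keratin, Col3a1 and class II numbered 58, with 9 each in mice 1 and 2, below the 20 cells required per mouse. C1q-negative myeloid cells low in class II were thus 0.160% of all barcodes, against 3.82% for the low C1q macrophages.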

How the data were processed

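The authors deposited unnormalized UMI counts, whole numbers for 55472 genes in each barcode. FastQC and Cell Ranger 2.2.0 with mm10 (GRCm38) are named in the submitters' processing notes. Counts were not filtered further, no doublet caller was run, and cells were gated on raw UMIs. UMIs were summed by gate and mouse and tested with edgeR 4.0.16 (filterByExpr, TMM, quasi-likelihood test, Benjamini-Hochberg adjustment, call at 0.05) in R 4.3.3. Mouse was a block because both gates come from the same animals, and same-mouse deviations correlated at 0.32, 0.29 and 0.25. Library totals were 20281799, 39370565, 29618360 and 31158441 UMIs. Binomial intervals cover counting error only. On simulated counts for the low and high cells (4607 genes), 97% of log2 changes of 2 and 44% of changes of 1 were recovered, with 2 false calls. The simulation gave every gene the same dispersion and set no differences between mice, so these figures may not hold for the real counts. Start windows are RefSeq GRCm38.p6.

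Named genes were the 12 highest and 12 lowest log2 fold changes past the threshold, alike in 3 of 3 mice and at 50 CPM or more, the markers, up to 4 abundant members per list, and the 10 list genes most variable over tumours. Other list members were named for their role after values were seen. The members and all 35 lists were chosen with earlier results of these data known. Alternatives covered scaling, DESeq2 1.42.0, filters, depth, gate limits, doublet markers and left-out tumours.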

Additional observations from a re-analysis of the deposited data

Results flagged for a closer look

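In 3 of 38 gene levels tested over the low cells of the 4 tumours, 1 tumour stood apart from the others by Dixon's criterion for 4 values (the gap to the nearest tumour over the whole range, at the 95% critical value). Chance alone flags about 1 in 20 groups of independent values, but that rate cannot be used as a benchmark here. Ifitm3 is one of the list genes named for their wide range over these same tumours. Tumours 3 and 4 also came from the same mouse, so the 4 values are not independent. The 3 flags are therefore a description. Il18bp was at 109 CPM in tumour 3 against 32.1 to 37.3 CPM in the others. H2-DMb2 was at 69.8 CPM in tumour 1 against 21.0 to 25.5 CPM, and the high cells of tumour 1 also stood above the others for it, at 281 against 100.3 to 105 CPM. Ifitm3 was at 678 CPM in tumour 2 against 178 to 243 CPM.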

How the results depend on the processing

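The 252 calls (110 higher, 142 lower) became 85 in DESeq2 (43 and 42), all of them among the 252. They became 30 without the replicate block (14 and 16), 103 without mouse 3 (55 and 48), and 111 after thinning to 1500 UMIs, where 3082 genes could be tested (52 and 59). Leaving out each tumour gave 161 to 374 calls, with 75 to 169 higher and 86 to 205 lower. A class II limit of 50 gave 167 higher, and a limit of 200 put 65.1% of C1q macrophages in the low group. For the 12 highest and 12 lowest named genes, Apoe, Trem2 and Ms4a7, 453 of 476 values under 18 alternatives kept direction and side of the threshold, 20 lost significance and 2 gained it. Of 84 list genes called, 6 to 21 lost the call without a single tumour and 41 without mouse 3. The 1 reversal was Ms4a7, at -0.036 with the limit of 200. The cause of these changes was not tested. The comparison with C1q-negative myeloid cells and its alternatives were not run. Counts of rare genes such as Folr2, Gpnmb and Cbr2 limit their precision.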
